A study of Mus musculus with 4 samples.

Results

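The genes described here encode the subunits of the hypoxia-inducible factors (HIFs), the oxygen-dependent hydroxylases that mark HIF-α, and the von Hippel-Lindau protein that recognises the marked form. They were chosen by name: the rows of the count table whose NCBI gene ID maps to Hif1a, Epas1, Hif3a, Arnt, Arnt2, Egln1, Egln2, Egln3, Hif1an and Vhl. All 10 were found among the 27179 genes of the table, and the rule used no measured value, although the set was proposed with earlier results of these data known.

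HIF is a pair of an α subunit (HIF-1α from Hif1a, HIF-2α from Epas1, HIF-3α from Hif3a) and a β subunit (from Arnt or Arnt2) that binds DNA and switches on genes for glycolysis, oxygen supply and survival. While oxygen is available, prolyl hydroxylases (PHD2 from Egln1, PHD1 from Egln2, PHD3 from Egln3) hydroxylate HIF-α, VHL recognises the hydroxylated protein and its ubiquitin ligase sends it to the proteasome. A separate asparaginyl hydroxylase, FIH (from Hif1an), blocks the binding of coactivators, so most of the control of HIF-α acts on the protein, which RNA counts do not measure.

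MC38 is a mouse colon carcinoma cell line, and the cells of all 4 groups were labelled as wild type. The groups were untreated cells in normoxia, untreated cells in hypoxia, IFN-γ treated cells in normoxia and IFN-γ treated cells in hypoxia, each with 1 poly-A RNA-seq library. The study's methods give 5 ng/mL IFN-γ for 24 h for most of its experiments, with 20% oxygen for normoxia and 1.5% for hypoxia. The time in hypoxia is not given in the sources used here. The comparisons asked how the RNA of these genes differed with oxygen, with IFN-γ, and with oxygen in the presence of IFN-γ.

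The libraries held between 34302971 and 34537939 counts. The treatment labels were checked with known responders: Irf1, an interferon-induced transcription factor, was counted at 3770 and 4422 without and at 20118 and 23759 with IFN-γ, and Car9, the HIF-induced carbonic anhydrase IX, at 422 and 324 in normoxia and at 1733 and 1536 in hypoxia. Of 8 epithelial markers, 4 (Epcam, Cdh1, Krt18 and Cdx2) held no more than 2 counts in any library and were thus absent or nearly so, and the 8 together reached 2.48 to 3.26 counts per 1000000 (CPM). The 7 fibroblast markers together reached 104 to 140 CPM, of which Col3a1 held 2233 to 3238 counts and Pdgfra 1077 to 1341, while 6 endothelial markers reached 1.05 to 1.91 CPM and 7 leukocyte markers 2.60 to 3.10 CPM. The part of these markers in the results below was not tested. In a bulk library fewer cells that express a gene and less of its RNA per cell cannot be told apart.

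HIF binds DNA at a short core, written ACGTG or GCGTG. The stretches upstream of the RefSeq start sites are shown for the 3 members that rose with hypoxia and for Egln2 and Hif1a, which did not pass the test, because HIF-bound genes are the usual reference for hypoxia-raised RNA. They are given 5′ to 3′ on the gene's strand in GRCm38.p6, with every match to a core, read on either strand, in capitals, and without the bases that GENCODE annotates as exon.
Egln1, chr8:124949325-124949504, minus strand: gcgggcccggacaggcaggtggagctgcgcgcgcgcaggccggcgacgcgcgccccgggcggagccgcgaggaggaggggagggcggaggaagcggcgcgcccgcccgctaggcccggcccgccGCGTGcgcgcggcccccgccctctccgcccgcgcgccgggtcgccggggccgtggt
Egln3, chr12:54203875-54204124, minus strand: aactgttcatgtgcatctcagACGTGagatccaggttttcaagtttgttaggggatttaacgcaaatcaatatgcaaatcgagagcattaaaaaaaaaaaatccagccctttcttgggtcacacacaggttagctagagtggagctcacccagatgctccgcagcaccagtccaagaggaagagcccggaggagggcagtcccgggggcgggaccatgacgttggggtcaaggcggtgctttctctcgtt
Vhl, chr6:113623744-113623958, plus strand: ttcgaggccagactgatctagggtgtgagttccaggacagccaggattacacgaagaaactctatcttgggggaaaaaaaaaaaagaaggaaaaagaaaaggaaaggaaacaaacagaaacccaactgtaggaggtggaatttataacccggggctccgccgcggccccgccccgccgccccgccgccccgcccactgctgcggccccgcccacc
Egln2, chr7:27166803-27167052, minus strand: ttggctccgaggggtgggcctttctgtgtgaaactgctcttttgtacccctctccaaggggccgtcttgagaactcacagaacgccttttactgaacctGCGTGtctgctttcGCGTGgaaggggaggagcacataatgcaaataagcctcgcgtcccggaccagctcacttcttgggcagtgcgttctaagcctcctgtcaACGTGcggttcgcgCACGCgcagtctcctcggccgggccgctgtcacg
Hif1a, chr12:73907617-73907866, plus strand: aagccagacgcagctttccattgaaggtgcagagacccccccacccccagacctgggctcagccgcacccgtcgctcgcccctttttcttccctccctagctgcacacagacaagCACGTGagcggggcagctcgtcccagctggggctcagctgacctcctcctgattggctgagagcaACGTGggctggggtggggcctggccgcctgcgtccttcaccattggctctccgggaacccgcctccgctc
Within 250 bases before the start site, Egln1 held 1 GCGTG at -126 and 1 ACGTG at -68, the latter in a stretch that GENCODE places in the gene's exon and that is not printed. Egln3 held 1 ACGTG at -229, and Vhl held no match. Egln2 held 4 matches at the start site shown and 1 GCGTG at a second RefSeq start site (window chr7:27165729-27165978), which is not printed. Hif1a held 3, a pair of which overlap as CACGTG. Over 32851 RefSeq promoter windows of the same length, 38.6% held at least 1 of these letters, 16.6% an ACGTG and 28.2% a GCGTG. At least 2 matches were held by 16.7% of the windows, at least 3 by 6.58% and at least 4 by 2.58%. The Hif1a stretch lies inside the gene as GENCODE draws it, between exons of transcripts that start further upstream. Of the members whose stretches are not shown, Hif3a held 2 matches, Arnt 1, and Arnt2 and Hif1an 0 each. Egln2 and Hif1a thus do not stand for all members that were not called. A match is a description of the letters and not a binding site, and 9 of the 10 members had an entry.

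Per kilobase of all annotated exons joined, Egln1 was the most abundant member, with a mean of 53.2 CPM per kilobase over the 4 libraries (29.4 to 77.8). Hif1a followed at 25.9 (25.2 to 26.7), and the ranges of these neighbours did not overlap. Vhl at 19.5 (15.4 to 24.6), Egln3 at 18.2 (10.9 to 25.5) and Egln2 at 17.0 (15.9 to 17.9) came next and overlapped each other in range. Hif1an at 12.3 (11.9 to 12.4) lay above Arnt at 8.19 (7.91 to 8.61). This order depends on the length used. By the longest annotated transcript Egln1 stayed at 53.2 and Hif1a stood at 32.4 (31.5 to 33.4), within the range of Egln1 and above its values of 29.7 and 29.4 in normoxia. By that length Egln2 at 22.6 stood above Vhl at 20.9 and Egln3 at 18.2, all overlapping in range, and Arnt at 15.2 above Hif1an at 13.1. The other 3 members were hardly counted, with Arnt2 at 0.0519, Epas1 at 0.0155 and Hif3a at 0.00431 CPM per kilobase. Among the subunits, Hif1a was thus the 1 α gene and Arnt the 1 β gene counted well enough for changes to be read, while all 4 hydroxylase genes and Vhl were.

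**Figure D1:**
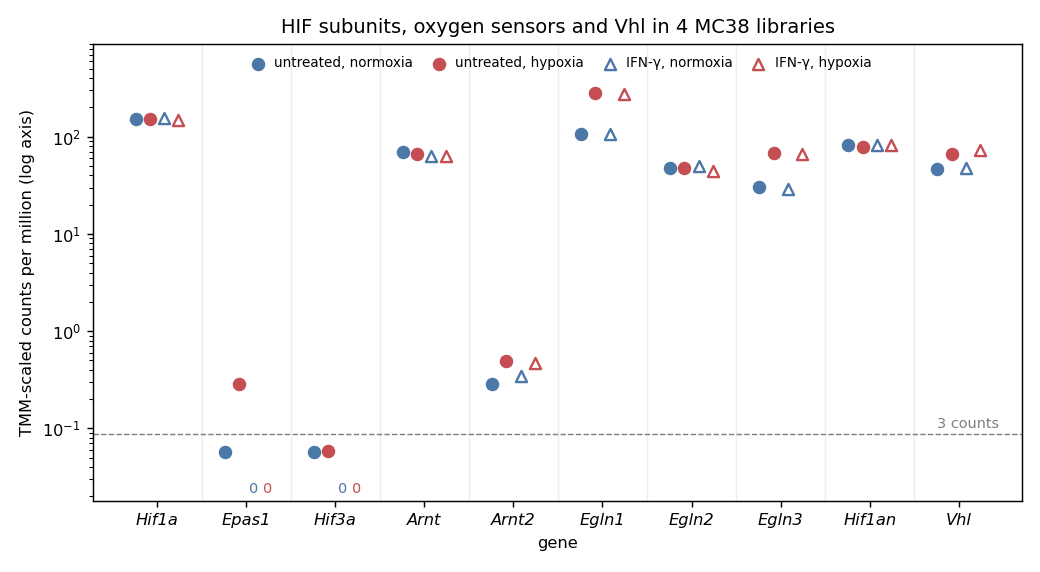
TMM-scaled CPM of the 10 members in each of the 4 libraries, on a log axis, with 0 written where no read was counted and a dashed line at the level of 3 counts. Egln1, Egln3 and Vhl are higher in both hypoxia libraries (red) than in both normoxia libraries (blue), and Epas1 and Hif3a lie at 0 in both IFN-γ libraries (triangles).

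With hypoxia, the RNA of 2 of the 3 prolyl hydroxylases and of Vhl rose, and that of the HIF subunits did not pass the test in either direction. Of the 10 members, 8 had enough counts to be tested with the quasi-likelihood method of edgeR, where p-values were adjusted by Benjamini-Hochberg over all 13580 genes tested, and Epas1 and Hif3a were not tested. At an adjusted p under 0.05, 3 rose and 0 fell, beside 8.21% of all tested genes that rose and 6.83% that fell. No condition had a replicate, so the spread in this test comes from departures from additive effects of oxygen and IFN-γ. It has 1 residual degree of freedom and is pooled over genes, so a gene's standard error and p say little about its own departure.

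Egln1, which encodes PHD2, the main oxygen sensor acting on HIF-1α, was counted at 3690 in normoxia and 9663 in hypoxia without IFN-γ, and at 3625 and 9329 with it. Both hypoxia libraries stood far above both normoxia libraries. The fitted rise was 1.38 on the log2 scale, or 2.60-fold (standard error 0.0578, edgeR adjusted p = 9.58e-120), the largest of the tested members and number 76 from the top when the 13580 tested genes are ordered by change. The size of this p rests on the pooled spread: over 8 alternative fits the adjusted p ran from 5.74e-112 to 0.00148.

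Egln3 encodes PHD3, which HIF itself induces in many cell types. It was counted at 1059 and 2344 without IFN-γ, in normoxia and hypoxia, and at 999 and 2269 with IFN-γ. Here too the 2 oxygen levels did not overlap. The fitted rise was 1.17 on the log2 scale, or 2.24-fold (standard error 0.0750, edgeR adjusted p = 2.04e-51, 3.12e-34 to 0.00224 over the 8 alternatives), at number 131 from the top.

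Egln2, which encodes PHD1, behaved apart from the other prolyl hydroxylase genes. Its counts were 1653 in normoxia and 1656 in hypoxia without IFN-γ, and 1714 and 1522 with IFN-γ, so the lowest library was the one with both stimuli and the oxygen levels overlapped. The fitted change with hypoxia was -0.08 on the log2 scale (standard error 0.0738, edgeR adjusted p = 0.526). A neighbouring gene on the opposite strand, Cyp2t4, shares 11 bases of exon with Egln2 and held 2 to 9 counts.

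Hif1an, the gene of FIH, ranged from 2710 to 2830 counts over the 4 libraries. Its lowest library was untreated hypoxia, and the oxygen levels overlapped. The fitted change with hypoxia was -0.03 on the log2 scale (standard error 0.0655, edgeR adjusted p = 0.819).

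Vhl, the gene of the recognition subunit, was counted at 1596 and 2288 without IFN-γ, in normoxia and hypoxia, and at 1639 and 2521 with IFN-γ. Both hypoxia libraries were above both normoxia libraries, and the highest was the one with both stimuli. The fitted rise was 0.57 on the log2 scale, or 1.49-fold (standard error 0.0708, edgeR adjusted p = 7.09e-14, 4.15e-08 to 0.0363 over the 8 alternatives), at number 676 from the top. It was the smallest of the 3 called changes.

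Hif1a, the gene of the well-counted α subunit, was counted at 5326 and 5224 without IFN-γ, in normoxia and hypoxia, and at 5404 and 5094 with it. Both hypoxia libraries lay slightly below both normoxia libraries, an order that 24.4% of all tested genes share. The fitted change was -0.05 on the log2 scale (standard error 0.0583, edgeR adjusted p = 0.609, 0.538 to 0.860 over the 8 alternatives). Of the Hif1a exon bases, 5.60% overlap an antisense gene, Gm15283, and 2.51% overlap Gm49321, a protein-coding gene on the same strand. The study's methods describe the sequencing as strand-specific, but how the counting used strand is not given in the sources used here.

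Arnt, the gene of the main β subunit, was counted at 2386 and 2302 without IFN-γ and at 2172 and 2174 with it. The oxygen levels overlapped, and the fitted change with hypoxia was -0.02 (standard error 0.0688, edgeR adjusted p = 0.876). Arnt2, a β subunit best known from neural tissue, held 10 and 17 counts without IFN-γ and 12 and 16 with it. Its 2 hypoxia libraries were above its 2 normoxia libraries, but at this depth the fitted change of 0.58 had a standard error of 0.572 (edgeR adjusted p = 0.570). Counting Arnt2, 4 of the 8 tested members had both hypoxia libraries above both normoxia libraries, an order found in 24.1% of all tested genes.

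Epas1, the gene of HIF-2α, held 2 and 10 counts without IFN-γ, in normoxia and hypoxia, and 0 and 0 with IFN-γ. Without IFN-γ the log2 ratio of hypoxia to normoxia was 2.07 with a counting interval from 0.09 to 5.56. It was 1.10 with 5 counts added to each library, and the interval from halved counts, -0.84 to 7.89, held 0. Hif3a held 2 counts in each untreated library and 0 in each IFN-γ library. A count of 0 allows up to 3 counts, or 0.0869 to 0.0875 CPM at these depths, so no change of Hif3a was detectable and the Epas1 values rest on 12 counts in all.

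**Figure D2:**
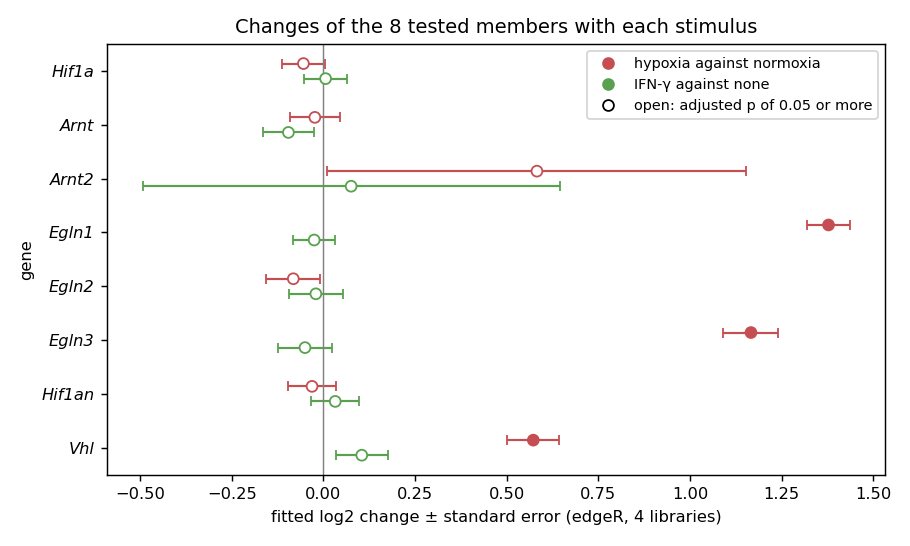
Fitted log2 changes with hypoxia (red) and with IFN-γ (green) of the 8 tested members, with standard errors from the edgeR fit to 4 libraries, filled where the adjusted p is under 0.05. Egln1 at 1.38, Egln3 at 1.17 and Vhl at 0.57 are the only filled points, and the IFN-γ changes lie between -0.10 and 0.10.

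With IFN-γ, 0 of the 8 tested members passed the threshold in edgeR, beside 4.76% of all tested genes that rose and 1.10% that fell. None had an unadjusted p under 0.05, and none was called in any of the 8 alternative fits, DESeq2 included. The fitted changes ran from -0.10 for Arnt (standard error 0.0688, edgeR adjusted p = 0.633) to 0.10 for Vhl (standard error 0.0707, adjusted p = 0.595). Over the same libraries Irf1 rose by 2.43 and Cd274, the gene of PD-L1, by 2.09 on the log2 scale, and all 6 genes of the IFN-γ check passed. The fibroblast marker Col3a1 fell by 0.39 with IFN-γ (edgeR adjusted p = 1.98e-07).

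Between single pairs of libraries, which give no test, 4 IFN-γ ratios of members had counting intervals that left 0, those of Vhl, Egln2 and Epas1 in hypoxia and of Arnt in normoxia. The share of all genes with such IFN-γ ratios was not counted, so these 4 are not read as particular to the members. Vhl changed with IFN-γ by 0.05 (-0.05 to 0.15) in normoxia and by 0.15 (0.07 to 0.24) in hypoxia, where the interval from halved counts was 0.04 to 0.27. Arnt changed by -0.12 (-0.21 to -0.04) in normoxia and by -0.07 (-0.15 to 0.02) in hypoxia. Egln2 changed by 0.07 (-0.03 to 0.16) in normoxia and by -0.11 (-0.21 to -0.0075) in hypoxia, where the interval from halved counts, -0.25 to 0.03, held 0. The upper end of the interval for Epas1 in hypoxia, on 10 and 0 counts, was -1.15, and 0.14 with halved counts. Both IFN-γ libraries of Arnt lay below both of its untreated libraries, an order found in 15.1% of all tested genes. In scaled CPM, both IFN-γ libraries of Hif1an (81.93 and 81.80) lay slightly above both untreated ones (81.73 and 78.41), an order found in 15.3%. These intervals cover counting error between 2 cultures and no spread between cultures.

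The hypoxia changes were then set side by side in the 2 IFN-γ states, each as the log2 ratio of a pair of libraries with a 95% interval that covers counting error only. Egln1 changed by 1.39 (1.34 to 1.45) without and 1.37 (1.31 to 1.42) with IFN-γ. Egln3 changed by 1.15 (1.04 to 1.25) and 1.18 (1.08 to 1.29), and Vhl by 0.52 (0.43 to 0.62) and 0.62 (0.53 to 0.71). For each of the 3 genes the intervals of the 2 states overlapped. Hif1a changed by -0.03 (-0.08 to 0.03) without and -0.08 (-0.14 to -0.03) with IFN-γ, and these intervals overlapped as well. The difference of the changes, with minus without IFN-γ, was -0.03 (-0.10 to 0.05) for Egln1, 0.04 (-0.11 to 0.19) for Egln3 and 0.10 (-0.03 to 0.23) for Vhl.

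Egln2 was the only one of the 7 well-counted members whose interval of the difference left 0. It changed by 0.01 (-0.09 to 0.10) without and by -0.17 (-0.27 to -0.07) with IFN-γ, a difference of -0.18 (-0.32 to -0.04). Among the 10443 genes that reached 100 counts in all 4 libraries, 34.5% had an interval that left 0, and the central 95% of their differences ran from -0.36 to 0.40, a span that holds the Egln2 value. Low counts in these libraries were mostly even (64.0% to 66.3% of counts from 1 to 10), a pattern that counting both reads of a pair gives, so the intervals were also computed from halved counts. The Egln2 interval then ran from -0.37 to 0.02, and 20.1% of genes left 0.

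**Figure D3:**
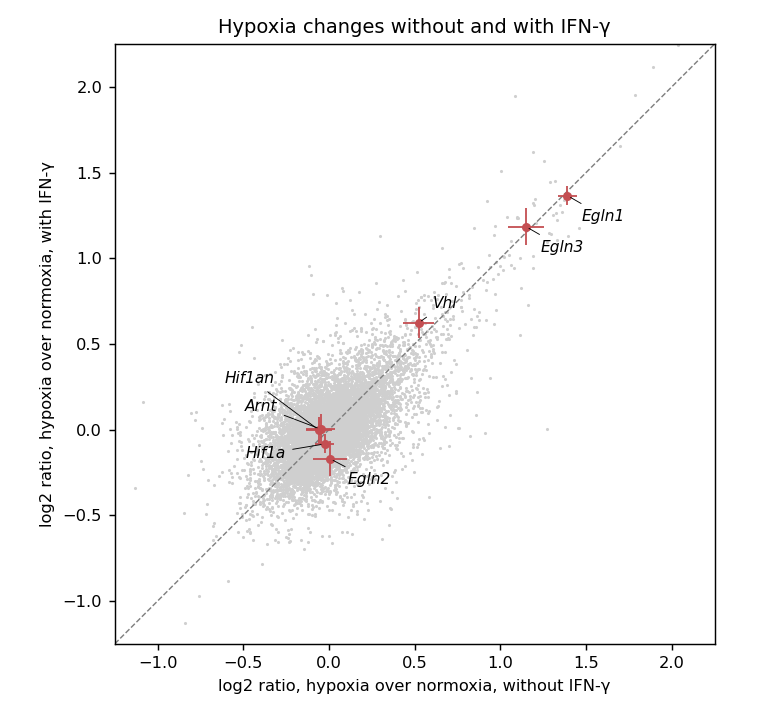
Log2 ratio of hypoxia to normoxia without IFN-γ (horizontal) and with IFN-γ (vertical) for the 10443 genes that reached 100 counts in all 4 libraries (grey) and for the 7 members among them (red, with 95% counting intervals), with a dashed line of equality. Egln1, Egln3 and Vhl lie on or near the line at the upper right, and Hif1a, Arnt, Hif1an and Egln2 lie in the dense centre.

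Since Egln1 and Egln3 rose and Egln2 did not pass the test, the makeup of the prolyl hydroxylase RNA differed with oxygen. Summed per kilobase, the 3 genes reached 58.2 CPM per kilobase in both normoxia libraries, 120 in untreated hypoxia and 117 in hypoxia with IFN-γ. Egln1 made up 51.0% and 50.5% of this sum in normoxia, without and with IFN-γ, and 64.6% and 65.0% in hypoxia. The share of Egln2 was 29.3% and 30.7% in normoxia and 14.2% and 13.6% in hypoxia, whereas Egln3 stayed between 18.8% and 21.4%. The level of Hif1a per unit of summed prolyl hydroxylase RNA was 0.448 and 0.459 in normoxia and 0.213 and 0.216 in hypoxia. These ratios describe RNA and rest on annotated exon lengths. By the longest transcript Egln1 made up 46.5% and 45.9% of the sum in normoxia and 61.7% and 62.2% in hypoxia, and Egln2 35.5% and 37.0% in normoxia and 18.0% and 17.3% in hypoxia.

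**Figure D4:**
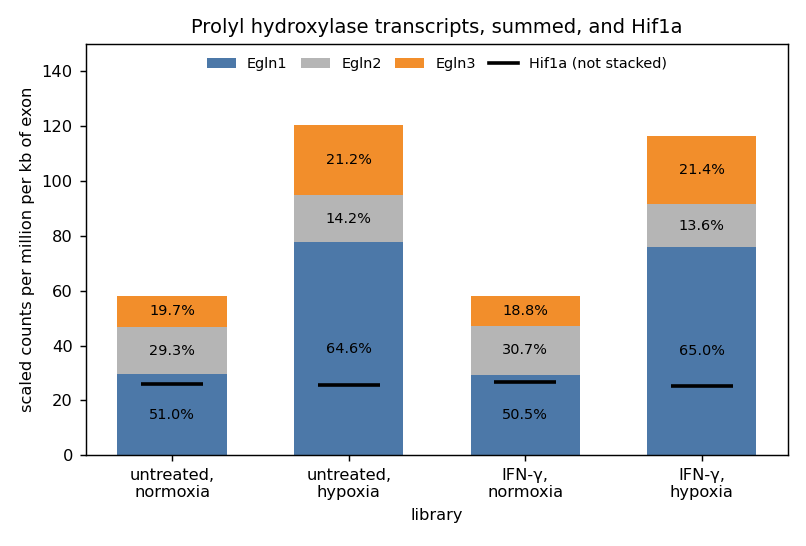
Summed CPM per kilobase of exon of Egln1, Egln2 and Egln3 in each library, with each gene's share of the sum written in its bar and the level of Hif1a as a black line. The sums are 58.2 in the normoxia libraries and 117 to 120 in the hypoxia libraries, with Hif1a between 25.2 and 26.7 in all 4.

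The genes that act with the members were then described by lists. VHL works in a ubiquitin ligase with elongins B and C (Elob, Eloc), the scaffold cullin 2 (Cul2) and the RING protein Rbx1, and 0 of the 8 ligase partners tested passed with either stimulus in edgeR, nor in DESeq2. At an unadjusted p under 0.05 in edgeR there were 0 with hypoxia and 1 with IFN-γ. Of all tested genes, 8.21% rose and 6.83% fell with hypoxia in edgeR, and 4.76% rose and 1.10% fell with IFN-γ. These shares apply to each list below, and 0 of 8 is near them. Their hypoxia changes ran from -0.11 to 0.11 on the log2 scale with a median of 0.02, beside 0.0047 over all genes tested. Elob changed by 0.03, Eloc by 0.11, Cul2 by -0.05 and Rbx1 by 0.01. Vhl passed the test with hypoxia and 0 of these 8 partners did, a count too small to tell from the share of all genes.

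Of 14 genes for the turnover of the hydroxylases and of HIF-α outside VHL, 1 rose with hypoxia and 0 fell (median 0.04), a share near the 8.21% of all tested genes that rose, and 0 passed with IFN-γ in edgeR (0 at an unadjusted p under 0.05) or in DESeq2. This was Siah2, a ubiquitin ligase that targets PHD1 and PHD3, counted at 721 and 827 without IFN-γ and at 697 and 876 with it. Its rise of 0.27 (standard error 0.0885, edgeR adjusted p = 0.0228) held in 4 of the 8 alternatives. Fkbp8, which binds PHD2, changed by 0.05 (adjusted p = 0.630).

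Among 11 tested HIF coactivators and their competitors, 2 rose and 1 fell with hypoxia (median 0.08), beside 8.21% and 6.83% of all tested genes. DESeq2 called 2 raised and 0 lowered, and 0 with IFN-γ. Pkm, the pyruvate kinase whose M2 form has been described as a HIF coactivator, rose by 0.43 (standard error 0.0400, edgeR adjusted p = 3.87e-24). Cited2, which competes with HIF-α for p300 and CBP, rose by 0.40 (standard error 0.0533, adjusted p = 4.59e-12), and Ruvbl1, a chromatin remodelling ATPase, fell by 0.16 (standard error 0.0566, adjusted p = 0.0399), a call that held in 1 of the 8 alternatives. Cited2 was also the only gene of the list called with IFN-γ, where it fell by 0.17 (adjusted p = 0.0347, held in 2 of the 8 alternatives). Cited4 held 0 counts in every library.

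None of the 6 tested relatives of the HIF subunits in the bHLH-PAS family passed with hypoxia in edgeR (1 at an unadjusted p under 0.05) or in DESeq2 (median -0.08), among them Ahr, the dioxin receptor, at -0.08 and Clock, a circadian factor, at -0.07. This is near the shares of all tested genes, 8.21% raised and 6.83% lowered. With IFN-γ, Arntl2, a circadian partner of Clock, rose by 0.58 (standard error 0.108, edgeR adjusted p = 2.85e-06). It was the only gene of the list called, beside 4.76% of all tested genes that rose and 1.10% that fell. It was counted at 399 and 370 without and at 527 and 617 with IFN-γ, and the call held in 6 of the 8 alternatives.

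The prolyl hydroxylases belong to a wider family of dioxygenases that use oxygen, iron and 2-oxoglutarate. The list of other oxygen-dependent dioxygenases is not confined to this family. Of its 21 tested genes, mostly histone and nucleic acid demethylases, 12 rose and 2 fell with hypoxia (median 0.23), beside 8.21% and 6.83% of all tested genes. Kdm4b, a histone H3 lysine demethylase, rose by 1.17 (standard error 0.0704, edgeR adjusted p = 1.26e-58), beside 1.17 for Egln3. Kdm5b, another histone demethylase, rose by 1.07 (standard error 0.155, adjusted p = 2.97e-10), in 6 of the 8 alternatives. Tet1, a DNA dioxygenase, rose by 2.43 (standard error 0.776, adjusted p = 0.0160) on 6 and 20 counts without IFN-γ and 0 and 12 with it, and held in 2 of the 8 alternatives. Tet3 fell by 0.25 and Riox1, a ribosomal oxygenase, by 0.31, in 6 and 5 of the 8 alternatives, and DESeq2 called 0 genes of the list lowered. With IFN-γ, 0 of this list passed in edgeR (2 at an unadjusted p under 0.05) and 0 in DESeq2.

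Of 7 collagen hydroxylases, 5 rose with hypoxia and 0 fell (median 0.28), beside 8.21% and 6.83% of all tested genes. P4ha2 and P4ha1, catalytic subunits of collagen prolyl 4-hydroxylase, rose by 1.35 and 0.80 on the log2 scale, and Plod2, a lysyl hydroxylase, by 0.92. P4hb, the shared β subunit, rose by 0.28 and Plod3 by 0.16, the latter in 4 of the 8 alternatives. With IFN-γ, 0 passed in edgeR (0 at an unadjusted p under 0.05) and 0 in DESeq2.

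Of 45 tested HIF target genes, a list chosen from general knowledge that also holds Kdm3a, P4ha1, P4ha2 and Plod2 of the lists above, 40 rose and 1 fell with hypoxia (median 0.98), beside 8.21% and 6.83% of all tested genes. The list was drawn up with earlier results of these data known, so it is not an independent reference. Car9 rose by 2.14 (standard error 0.0885, edgeR adjusted p = 7.69e-123), Bnip3, a mitophagy receptor, by 1.68, Slc2a1, the glucose transporter GLUT1, by 1.29 and Vegfa, the angiogenic growth factor, by 0.74. Slc2a3, another glucose transporter, was called at 1.74 on 4 to 33 counts and in 0 of the 8 alternatives. Pfkfb3, a regulator of glycolysis, fell by 0.24, a call that held in 5 of the 8 alternatives and not in DESeq2. With IFN-γ, Hmox1, heme oxygenase, rose by 0.25 and Aldoc, an aldolase, fell by 0.51, and they were called in 5 and 0 of the 8 alternatives. Against this list, the rises of Egln1 and Egln3 lay above its median and that of Vhl below its lower quartile of 0.73.

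**Figure D5:**
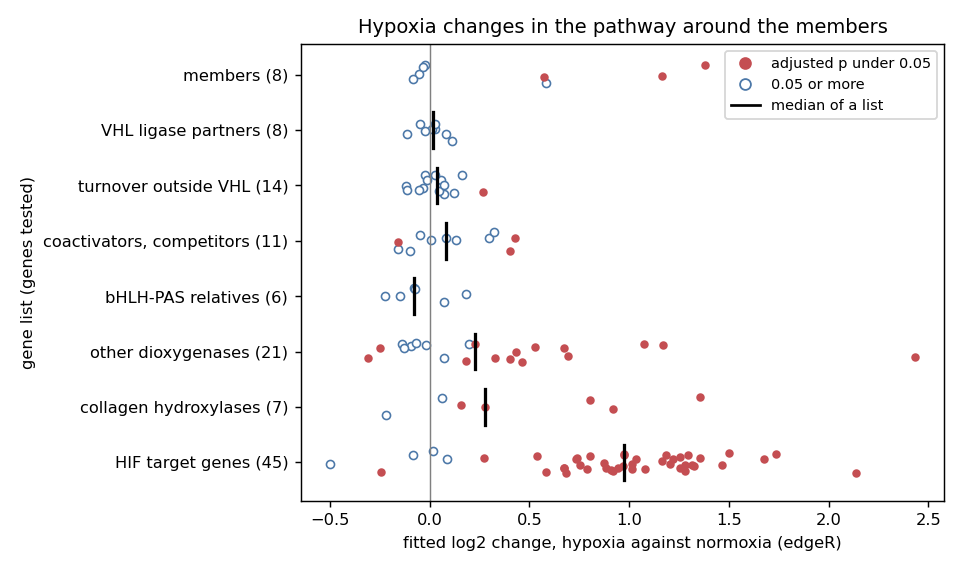
Fitted log2 change with hypoxia of each tested gene of the members and of 7 lists, red where the edgeR adjusted p is under 0.05, with a black bar at the median of each list. The VHL ligase partners lie between -0.11 and 0.11, and the HIF target genes centre at 0.98.

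The genes most like each called member were named by the smallest Euclidean distance between their 4 centred log2 CPM values and those of the member, over 10442 other well-counted genes and 4 libraries. For Egln1 they were P4ha2 (distance 0.0725, with 3882, 10005, 3638 and 9207 counts in untreated normoxia, untreated hypoxia, IFN-γ normoxia and IFN-γ hypoxia), Ak4, a mitochondrial adenylate kinase (0.0779), and Bnip3l, a mitophagy receptor (0.0804). For Egln3 they were Gys1, glycogen synthase (0.0526), Slc16a3, the lactate exporter MCT4 (0.0536), and Kdm4b (0.0564). For Vhl they were Zfp292 (0.0378), Mfsd9 (0.0629) and Sdc4, a heparan sulfate proteoglycan (0.0666). The neighbours of Egln1 and Egln3 all come from the lists above, whereas none of those of Vhl does. For such genes the distance follows mainly the size of the hypoxia change, and the lists hold many strongly raised genes. Membership of a list is thus no separate result. With 4 libraries such likeness is a description of the values.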

How the data were processed

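RNA-seq was performed on 4 MC38 libraries, 1 per condition. Reads were aligned with HISAT2, and the submitters' processing notes name featureCounts and mm10. The table deposited by the authors holds raw counts for each NCBI gene ID, and 25275 of the 27179 IDs matched a symbol in the RefSeq gene table for GRCm38.p6. The annotation, the versions and the strand and multi-mapping settings are not given in the sources used here.

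edgeR 4.0.16 (R 4.3.3) was run with TMM scaling (factors 0.993 to 1.01), its default low-count filter and an additive model of oxygen and IFN-γ, at an adjusted p under 0.05. With 1 library per condition, p-values rest only on departures from additivity between these libraries, pooled over genes. In these departures the spread between cultures and any interaction are mixed. The fits were tested on simulated data. Pair ratios had 0.5 counts added and exact Clopper-Pearson intervals at 95%. Levels per kilobase used the union of GENCODE vM21 exons. The alternatives were DESeq2 1.42.0, other scalings and filters, models without the other stimulus, and halved counts, the last chosen after seeing the data. The members and lists were chosen with earlier results of these data known. Named genes were all members, the 3 called genes with the largest change per list and stimulus (all where 5 or fewer were called), fixed partners and label checks, and the 3 nearest genes of each called member. Tet3, Riox1 and Pfkfb3 were added after their values were seen. Some genes that this rule names are not reported here.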

Additional observations from a re-analysis of the deposited data

Results flagged for a closer look

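The 162 genes of the members and lists were searched for changes of opposite direction in the 2 states of the other stimulus, with both 95% counting intervals leaving 0. No member met this, and 12 changes of other genes did. Each value is the log2 change with hypoxia with IFN-γ minus that without, which is also the log2 change with IFN-γ in hypoxia minus that in normoxia. With 1 library per condition these differences were not tested. Among 10443 well-counted genes, 3.93% had such opposite hypoxia changes and 6.33% such opposite IFN-γ changes.

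For both stimuli, Ep300, the gene of the coactivator p300, differed by 0.39 and Hsp90ab1, an HSP90 chaperone, by 0.16. Ep300 was counted at 2833 and 2479 without IFN-γ, in normoxia and hypoxia, and at 2630 and 3015 with it. For hypoxia, Elob differed by -0.21, Col3a1 by -0.27 and Pdgfra by -0.31, and these 3 did not hold with halved counts. For IFN-γ, Bhlhe40, a HIF-induced repressor, differed by 0.51, Kdm6b by 0.37, Gapdh by 0.086, Hsp90aa1 by -0.11 and Rack1 by -0.14, of which Kdm6b did not hold with halved counts, nor did the IFN-γ changes of Ep300.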

How the results depend on the processing

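The counts of members called, 3 raised and 0 lowered with hypoxia and 0 with IFN-γ, were the same under all 8 alternative fits. Over all tested genes, edgeR called 2042 with hypoxia and 796 with IFN-γ, DESeq2 576 and 369, and the comparison of 2 libraries against 2 by edgeR 176 and 242, so the shares of all genes given in the report belong to the additive edgeR fit. Of the fitted changes over all 4 libraries, that of Hif1a with IFN-γ turned from 0.0059 with TMM to -0.011 with total counts and was called under neither. Of the ratios between pairs of libraries, 4 near 0 also turned with total counts: that of Egln2 with hypoxia without IFN-γ (0.0052 to -0.0062), of Hif1an with hypoxia with IFN-γ (-0.0022 to 0.0013) and with IFN-γ in normoxia (0.0034 to -0.021), and of Hif3a with hypoxia without IFN-γ (0.0026 to -0.0089). With DESeq2 and in the comparison of 2 libraries against 2 by edgeR, respectively, the turnover list had 0 and 0 genes called with hypoxia, the other dioxygenases 8 and 5, the IFN-γ check genes 3 and 0 with hypoxia, and with IFN-γ the coactivators, the bHLH-PAS relatives and the HIF targets had 0 and 0 each. In the additive edgeR fit, 5 of the 6 IFN-γ check genes were called with hypoxia, all raised, beside 8.21% of all tested genes. The coactivators had 1 called with hypoxia in the comparison of 2 against 2. With halved counts the turnover list had 2 called with hypoxia. The cause was not tested. Each condition had 1 library, so there were no replicates within a condition to pair. The additive model already compares oxygen levels within each IFN-γ state, and the comparisons of 2 against 2 leave that out. Leaving out any library leaves the additive model with no residual degree of freedom. At this depth Epas1, Hif3a and Arnt2 were too thinly counted for a change to be judged.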
